A study of Mus musculus with 4 samples.

Results

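Cortical astrocyte nuclei were picked from single-nucleus RNA libraries of adult female mouse cortex by the marker transcripts they held, which gave 772 of 26350 kept nuclei. A nucleus was kept when it had at least 500 detected genes and at most 5% mitochondrial counts. An astrocyte nucleus needed 5 or more unique molecular identifiers (UMIs, each standing for 1 captured RNA molecule) summed over Slc1a3, Aqp4, Gja1, Gli3, Acsbg1 and Slc39a12. It could hold at most 1 UMI of the neuronal genes Slc17a7, Gad1 and Gad2 together, at most 2 of the oligodendrocyte genes Mog, Mag and Mobp, none of the precursor gene Pdgfra and at most 1 of the endothelial gene Flt1. Of the nuclei so chosen, 241 and 223 came from the pregnant mice and 144 and 164 from the non-pregnant mice.

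The pregnant group was 2 females taken at E13.5, counted in embryonic days after a timed mating, and the non-pregnant group was 2 females that were not pregnant. All 4 animals were wildtype C57BL/6JRj mice of about 12 weeks. Each gave 1 library of nuclei from microdissected cortex, and which area of cortex was taken is not stated in the labels. The design text calls the animals biological replicates, and the series title puts the question as what happens in the cortex at mid-gestation.

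Astrocytes are the glial cells that tile the grey matter. They clear glutamate from synapses through transporters, buffer potassium, wrap blood vessels with endfeet rich in the water channel Aqp4, and are joined to each other by gap junctions of which Gja1 is the main subunit. They also make most of the cholesterol that adult neurons use, and pass it on in particles that carry apolipoprotein E.

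The 4 libraries held 6357 to 6932 barcodes and 97875766 to 116860425 UMIs, and any pair of libraries shared 20 to 31 barcodes. Astrocyte nuclei were shallower than the rest. Their median depth was 5810 and 5993 UMIs in pregnant libraries, and 5545 and 7680 UMIs in non-pregnant libraries. All other kept nuclei had medians of 14848 and 14045 UMIs in pregnant libraries, and 13444 and 18087 UMIs in non-pregnant libraries. The summed astrocyte counts were 1449333 and 1408435 UMIs in pregnant libraries, and 826468 and 1294831 UMIs in non-pregnant libraries, so non-pregnant replicate 1 had the shallowest sum and non-pregnant replicate 2 the deepest nuclei. Pearson's r between the astrocyte sums of 2 libraries, over genes, was 0.942 to 0.965.

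The chosen nuclei carried the astrocyte programme. The values in this paragraph describe the choice and were not tested, since marker counts made it. Levels are CPM, a gene's UMIs per 1000000 UMIs of the sum, which are not scaled to gene length and compare samples, not genes. Slc1a3, the glutamate transporter GLAST, stood at 2678 and 2562 CPM in pregnant and 2553 and 2155 CPM in non-pregnant astrocyte sums. Aqp4 stood at 181 and 179 CPM in pregnant and 143 and 122 CPM in non-pregnant sums, Gja1 at 208 and 207 CPM in pregnant and 146 and 124 CPM in non-pregnant sums. Gli3, a transcription factor of hedgehog signalling, stood at 842 and 758 CPM in pregnant and 789 and 747 CPM in non-pregnant sums. In every library each of the 4 was at least 64.9 times its level in the other kept nuclei. Genes that the choice did not count were concentrated in the same nuclei: Grin2c, an NMDA receptor subunit, by at least 238-fold, and Cyp4f15, a fatty acid hydroxylase, by at least 233-fold. Gpc5, a glypican, was among the most abundant transcripts.

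Other cells were present among the 772 nuclei, in numbers that differed between the groups. Nuclei with 5 or more UMIs of 9 microglial genes numbered 8 and 15 in pregnant libraries, and 16 and 20 in non-pregnant libraries, or 3.32% and 6.73% of pregnant against 11.1% and 12.2% of non-pregnant astrocyte nuclei. Nearly all of them sat near the threshold, with 5 to 9 astrocyte UMIs (8 and 12 in pregnant, 14 and 19 in non-pregnant libraries). Nuclei with 3% or more of their UMIs from 334 neuron-enriched genes numbered 6 and 7 in pregnant libraries, and 1 and 2 in non-pregnant libraries, of which 3 and 2 in pregnant and 0 and 2 in non-pregnant libraries were microglial nuclei as well. The neuron-enriched genes were taken from these same libraries. They had 50 CPM or more in excitatory or inhibitory neurons. In both they had at least 10 times their level in astrocyte nuclei without the microglial ones. A further test asked for 10 UMIs of Gpc5 and Slc1a2 together, 2 abundant astrocyte transcripts. Outside the microglial nuclei, 4 and 4 pregnant and 2 and 4 non-pregnant nuclei fell short. Beyond both of these sets, the neuronal limit removed 2 and 4 pregnant and 1 and 0 non-pregnant nuclei. Taking all of these out left the core nuclei, 227 and 200 in pregnant libraries, and 125 and 140 in non-pregnant libraries, a set chosen after seeing the data. Just inside the marker threshold, at exactly 5 UMIs, lay 4 and 7 pregnant and 8 and 13 non-pregnant nuclei. Just outside it, at 4 UMIs, lay 13 and 12 pregnant and 8 and 17 non-pregnant nuclei.

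**Figure D1:**
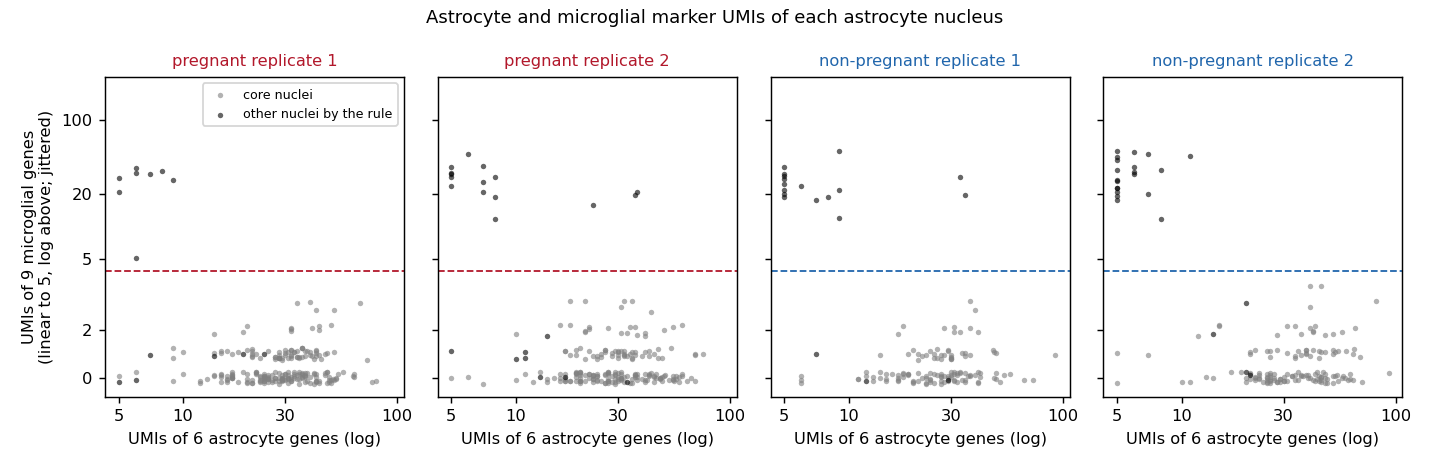
Each point is 1 of the 772 astrocyte nuclei, with its UMIs of 6 astrocyte genes on a log axis across and its UMIs of 9 microglial genes up (linear to 5, log above, jittered), 1 panel per library. Grey points are core nuclei and black points the others, and the dashed line marks the microglial limit. The nuclei above the line, 8 and 15 in pregnant and 16 and 20 in non-pregnant libraries, lie mostly at the left edge.

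Summed marker levels show what the core set changed. The 9 microglial genes summed to 220 and 361 CPM in pregnant and 555 and 557 CPM in non-pregnant astrocyte sums, but to 74.3 and 79.4 CPM in pregnant and 70.6 and 64.8 CPM in non-pregnant core sums. Nuclei with 5 or more UMIs of these same 9 genes were left out of the core, so this evening out was set by the choice. Transcripts of 5 red blood cell genes did not even out, at 51.0 and 67.6 CPM in pregnant and 8.15 and 6.82 CPM in non-pregnant core sums. Neuron-enriched genes made up 0.539% and 0.543% of core UMIs in pregnant libraries, and 0.411% and 0.404% in non-pregnant libraries. The 8 endothelial markers summed to 11.7 and 23.4 CPM in pregnant and 9.68 and 11.6 CPM in non-pregnant astrocyte sums, with Cldn5 at 0 in all 4, and 5 of 6 ependymal markers were at 0. The 7 mural cell markers summed to 150 and 131 CPM in pregnant and 163 and 156 CPM in non-pregnant astrocyte sums, above the 11.2 and 12.0 CPM in pregnant and 6.91 and 9.20 CPM in non-pregnant sums of the other nuclei. Most of this was Pdgfrb, a growth factor receptor, and without it the sums were 35.9 and 8.52 CPM in pregnant and 30.2 and 22.4 CPM in non-pregnant astrocytes. The 7 fibroblast markers summed to 253 and 224 CPM in pregnant and 188 and 295 CPM in non-pregnant astrocyte sums, against 3.30 and 3.45 CPM in pregnant and 2.19 and 4.54 CPM in non-pregnant sums of the other nuclei. Here Ranbp3l led, and without it the sums were 26.9 and 25.6 CPM in pregnant and 18.1 and 48.7 CPM in non-pregnant astrocytes. Acta2 and Lum were the mural and fibroblast markers at 0 in all 4 sums, and the part of such cells in the results was not tested.

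The share of astrocyte nuclei was higher in both pregnant libraries, in a design too small for a test to pass. They were 3.68% and 3.33% of kept nuclei in pregnant libraries, and 2.10% and 2.62% in non-pregnant libraries. The 95% Wilson intervals, which cover counting error only, ran from 3.25 to 4.16 and 2.93 to 3.79 in pregnant libraries, and from 1.79 to 2.47 and 2.25 to 3.04 in non-pregnant libraries. The groups did not overlap. The means were 3.51% ± 0.241 in pregnant and 2.36% ± 0.364 in non-pregnant libraries (SD, n = 2 each), a difference of 1.14 percentage points (two-sided exact permutation test, p = 0.333, the smallest this design allows). In core nuclei the means were 3.23% ± 0.333 in pregnant and 2.03% ± 0.290 in non-pregnant libraries. Set against only the nuclei with at most 1 neuronal UMI, astrocytes were 13.2% and 11.4% in pregnant and 9.13% and 12.1% in non-pregnant libraries. There the groups overlapped (p = 0.667 by the same exact test). The limit on neuronal UMIs also took away more nuclei from pregnant libraries. Of the 315 and 319 pregnant and 187 and 217 non-pregnant nuclei with enough astrocyte UMIs, it removed 56 and 72 pregnant and 23 and 22 non-pregnant nuclei. Its part in the share was not tested.

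**Figure D2:**
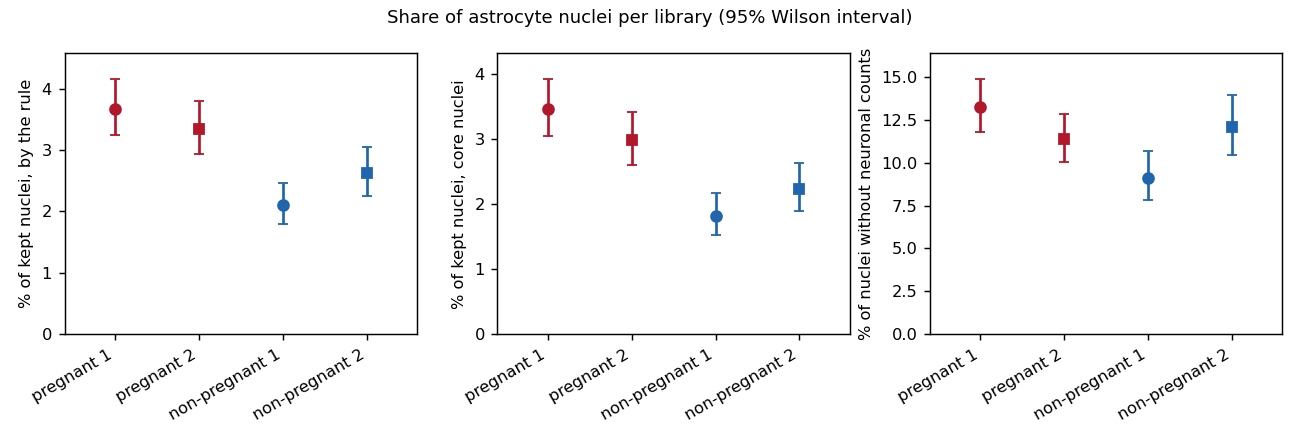
Share of astrocyte nuclei in each library, in percent, with 95% Wilson intervals that cover counting error only. Panels from left to right show all astrocyte nuclei, the core nuclei, and astrocyte nuclei among nuclei with at most 1 neuronal UMI. Both pregnant libraries lie above both non-pregnant libraries in the first and second panels, and the groups overlap in the third.

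Between pregnant and non-pregnant astrocyte sums 71 genes rose and 85 fell among 10730 tested (1.45% called; edgeR's quasi-likelihood test, Benjamini-Hochberg adjusted p below 0.05). Among the 85 that fell, 69 (81.2%) had their highest level in microglial nuclei of these libraries, where 26.8% of all tested genes did. Among the 71 that rose, 37 (52.1%) were highest in excitatory and 11 (15.5%) in inhibitory neurons, as were 6.18% and 7.90% of all tested genes. Astrocytes had the highest level of 6 genes that rose and 6 that fell, 8.45% and 7.06% of these, against 17.1% of all tested genes. In the core nuclei 21 genes rose and 11 fell among 10005 tested (0.32% called by the same test). Across both sets 23 genes were called, 13 that rose and 10 that fell, and this selection was made after their values were seen. They include 1 predicted gene that rose and 1 that fell, which are not named. Of the 10 that fell, 6 had their highest level in astrocytes, as did 18.1% of all genes tested in core nuclei. Of the 13 that rose, 2 did and 7 were highest in neurons, where 5.86% of genes tested in core nuclei were highest in excitatory and 7.96% in inhibitory neurons. Leaving out each library in turn, 10 of the 23 stayed called every time in the astrocyte sums and 4 in the core sums, and DESeq2 called 7 in the astrocyte sums and 1 in the core sums. All the genes that DESeq2 called rose, and it called none of the 10 that fell in either set. Levels of single genes in astrocyte nuclei below are CPM after TMM scaling, which evens out library composition. Sums over several genes and levels in other classes of nuclei are CPM without it. Fold changes are log2 ratios, pregnant over non-pregnant, with their standard error.

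The 6 genes that fell and had their highest level in astrocytes were Lgr6, Lama3, Acly, Sat1, Lss and Cox7b2. Lgr6, a receptor for R-spondins, which boost Wnt signals, stood at 42.3 and 51.5 CPM in pregnant astrocytes, and 93.3 and 98.7 CPM in non-pregnant astrocytes. Both pregnant libraries were below both non-pregnant ones. The change was -1.04 ± 0.19 (adjusted p = 0.00363 by edgeR), and -1.09 in core nuclei (adjusted p = 0.00127).

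Lama3, a laminin chain of basement membranes, stood at 148 and 154 CPM in pregnant astrocytes, and 240 and 238 CPM in non-pregnant astrocytes. It fell by 0.66 ± 0.14 on the log2 scale (adjusted p = 0.00805 by edgeR; core -0.74, adjusted p = 0.00291). Replicates within each group were close and the groups lay apart. DESeq2 called neither Lgr6 nor Lama3 (adjusted p = 0.271 and 0.232 by DESeq2 in the astrocyte sums). Both Lgr6 and Lama3 stayed called with any library left out of the astrocyte sums, and lost the call in the core sums without pregnant replicate 1. In the other kept nuclei Lama3 changed the other way (0.57, adjusted p = 0.0487 by edgeR), and the difference between astrocytes and the rest was -1.18 (adjusted p = 1.1e-07 by edgeR's interaction test). Astrocyte-marked nuclei with neuronal counts are part of that rest, and were more numerous in pregnant libraries, as given above; their part in this difference was not tested.

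Acly, the enzyme that splits citrate into the acetyl-CoA used to build fatty acids and sterols, stood at 44.5 and 48.0 CPM in pregnant astrocytes, and 90.8 and 86.7 CPM in non-pregnant astrocytes. The groups did not overlap, and Acly fell by 0.94 ± 0.20 on the log2 scale (adjusted p = 0.00973 by edgeR; core -1.08, adjusted p = 0.00299). It lost the call without pregnant replicate 1. In the other kept nuclei the change was 0.03 and in oligodendrocyte nuclei -0.11. The difference between astrocytes and the rest passed the interaction test of edgeR (-0.92, adjusted p = 0.00831).

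Sat1, the acetyltransferase that starts the breakdown of the polyamines spermidine and spermine, stood at 291 and 303 CPM in pregnant astrocytes, and 424 and 461 CPM in non-pregnant astrocytes. It fell by 0.58 ± 0.13 on the log2 scale, with no overlap (adjusted p = 0.0138 by edgeR; core -0.62, adjusted p = 0.00711). Without non-pregnant replicate 2 it did not pass in either set, nor without pregnant replicate 1 in the core sums.

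Bcl6, a transcriptional repressor, stood at 48.8 and 36.7 CPM in pregnant astrocytes, and 84.8 and 73.0 CPM in non-pregnant astrocytes (-0.87 ± 0.21, adjusted p = 0.0299 by edgeR; core -0.96, adjusted p = 0.0166). Sgcd, a sarcoglycan that sits beside dystrophin in the membrane, stood at 76.0 and 79.0 CPM in pregnant astrocytes, and 109 and 166 CPM in non-pregnant astrocytes (-0.86 ± 0.18, adjusted p = 0.0131 by edgeR). In non-pregnant replicate 2, 40 of its 207 UMIs came from 1 nucleus. Rbms3, an RNA-binding protein, stood at 199 and 157 CPM in pregnant astrocytes, and 231 and 331 CPM in non-pregnant astrocytes (-0.68 ± 0.17, adjusted p = 0.046 by edgeR). Non-pregnant replicate 2 was the highest library for Sgcd and Rbms3, and neither passed without it, nor did Rbms3 without pregnant replicate 2. Bcl6 lost its call without pregnant replicate 2 or non-pregnant replicate 1.

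Cox7b2, a subunit of the last complex of the respiratory chain, rested on few molecules, 7 UMIs over the pregnant and 34 over the non-pregnant astrocyte sums. The ratio of these totals per UMI sequenced, pregnant over non-pregnant, was 0.153 (exact 95% interval 0.0572 to 0.350, counting error only). It lost the call without pregnant replicate 2, and without non-pregnant replicate 2 it had too few counts for the test.

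**Figure D3:**
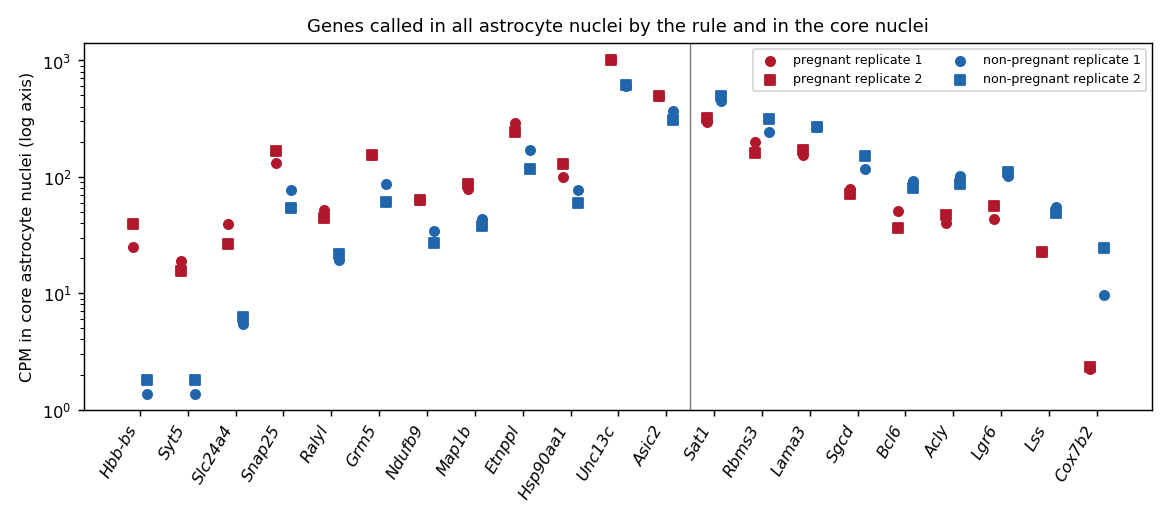
CPM after TMM scaling (log axis) in the core astrocyte nuclei of each library, for the 21 named genes called in all astrocyte nuclei and in the core nuclei, those that rose at the left and those that fell at the right. Red symbols are pregnant and blue non-pregnant libraries, circles replicate 1 and squares replicate 2; for Unc13c, for example, pregnant libraries lie at 1021 and 1008 CPM and non-pregnant libraries at 600.4 and 617 CPM.

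Genes of cholesterol synthesis mostly had negative fold changes in pregnant astrocytes, although only Lss passed the test. Cells make cholesterol from acetyl-CoA in a long chain of enzymes, whose genes are switched on together by the transcription factor SREBP2 (Srebf2) when sterols run low. Factor NF-Y, which binds CCAAT boxes, is a known partner of SREBP at these promoters. Promoters of the 4 members Lss, Nsdhl, Cyp51 and Msmo1 are shown because they had the list's smallest p-values in the astrocyte sums. They run from 250 bases before to 50 after the start of each gene, in RefSeq's annotation of GRCm38.p6, 5′ to 3′ on the strand of the gene, with CCAAT or its reverse complement ATTGG in capitals. The Lss promoter is chr10:76531355-76531654 on the plus strand, that of Nsdhl chrX:72918271-72918570 on the plus strand, that of Cyp51 chr5:4104648-4104947 on the minus strand and that of Msmo1 chr8:64733529-64733828 on the minus strand.
Lss: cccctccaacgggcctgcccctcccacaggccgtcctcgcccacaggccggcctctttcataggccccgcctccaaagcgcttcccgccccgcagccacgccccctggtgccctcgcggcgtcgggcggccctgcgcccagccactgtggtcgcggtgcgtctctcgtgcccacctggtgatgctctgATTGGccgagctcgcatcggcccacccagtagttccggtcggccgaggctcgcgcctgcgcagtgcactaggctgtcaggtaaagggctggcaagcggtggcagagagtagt
Nsdhl: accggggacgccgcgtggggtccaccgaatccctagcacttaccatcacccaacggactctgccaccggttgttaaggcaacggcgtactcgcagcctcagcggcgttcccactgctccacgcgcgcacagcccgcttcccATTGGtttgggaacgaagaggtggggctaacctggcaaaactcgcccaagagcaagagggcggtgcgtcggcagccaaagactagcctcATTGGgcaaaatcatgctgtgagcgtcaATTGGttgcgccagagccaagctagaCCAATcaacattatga
Cyp51: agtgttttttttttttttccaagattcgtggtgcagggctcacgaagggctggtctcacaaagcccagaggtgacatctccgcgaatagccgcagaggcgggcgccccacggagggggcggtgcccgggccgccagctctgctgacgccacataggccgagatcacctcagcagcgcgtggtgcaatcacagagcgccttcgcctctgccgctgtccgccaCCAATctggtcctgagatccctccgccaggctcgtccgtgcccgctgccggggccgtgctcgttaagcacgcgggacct
Msmo1: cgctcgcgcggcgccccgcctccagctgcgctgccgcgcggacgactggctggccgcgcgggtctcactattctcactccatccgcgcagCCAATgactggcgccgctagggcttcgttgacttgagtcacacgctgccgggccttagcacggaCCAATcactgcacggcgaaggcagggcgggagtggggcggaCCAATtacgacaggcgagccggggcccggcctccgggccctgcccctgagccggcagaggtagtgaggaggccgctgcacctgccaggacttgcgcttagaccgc
The count of boxes is 1 for Lss, 4 for Nsdhl, 1 for Cyp51 and 3 for Msmo1. RefSeq promoters were matched for 18 of the 26 list members, 25 promoters in all, and 14 of these (56%) held CCAAT on either strand, against 12289 of all 32851 promoters (37.4%). The sterol element TCACNCCAC was in 1 of the 25, that of Hmgcs1, and in 408 of all promoters (1.24%). A match describes the letters only.

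Of the 26 cholesterol genes tested, 1 fell and none rose in the astrocyte sums, where 0.792% of all genes fell. Their fold changes were negative for 23, with a median of -0.40 against 0.01 over all 10730 genes, and 10 had an unadjusted p below 0.05 in either direction, where 9.32% of all genes did. In core nuclei 23 of 25 were negative, with a median of -0.45 against 0.00 over all genes. The list's CPM summed to 2115 and 1948 in pregnant astrocytes, and 2634 and 2330 in non-pregnant astrocytes. In the other kept nuclei 20 of 26 were positive with a median of 0.10, and in oligodendrocytes, which also make sterols for myelin, 17 of 25 were negative with a median of -0.11, and no member was called in either (1.42% of genes were called in the other kept nuclei and 1.94% in oligodendrocytes).

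Lss, lanosterol synthase, which closes the sterol rings, was the member that fell. It stood at 22.9 and 21.9 CPM in pregnant astrocytes, and 49.7 and 43.3 CPM in non-pregnant astrocytes (-1.04 ± 0.26, adjusted p = 0.0339 by edgeR; core -1.18, adjusted p = 0.0204). The groups lay apart, but Lss did not pass in any of the 4 fits that left out a library.

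Nsdhl and Msmo1, which strip methyl groups from the sterol ring, and Cyp51, the demethylase before them, were lower in both pregnant libraries without passing. Groups lay apart in that direction for 18.6% of all genes tested, and these members were picked for their small p-values. Msmo1 stood at 237 and 191 CPM in pregnant astrocytes, and 319 and 242 CPM in non-pregnant astrocytes (-0.38 ± 0.15, adjusted p = 0.356 by edgeR). Cyp51 stood at 138 and 117 CPM in pregnant astrocytes, and 190 and 149 CPM in non-pregnant astrocytes (-0.40 ± 0.15, adjusted p = 0.341 by edgeR). Nsdhl stood at 100.4 and 96.6 CPM in pregnant astrocytes, and 145 and 121 CPM in non-pregnant astrocytes (-0.42 ± 0.16, adjusted p = 0.305 by edgeR).

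Early in the chain, Hmgcs1, which makes HMG-CoA, stood at 138 and 88.9 CPM in pregnant astrocytes, and 145 and 155 CPM in non-pregnant astrocytes (-0.41 ± 0.18, adjusted p = 0.443 by edgeR). Genes of cholesterol export moved less, with -0.04 ± 0.14 for Apoe and -0.11 ± 0.14 for Abca1, a pump that loads the particles.

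The change in astrocytes differed from that in the rest of the cortex for 5 of the 26 genes (1.28% of all 20218 genes tested passed in either direction; edgeR's interaction test with the animal as a block). Differences included -0.87 ± 0.18 for Hmgcs1 (adjusted p = 0.000561 by edgeR), -0.69 for Msmo1 (0.00208), -0.58 for Cyp51 (0.0415) and -1.01 for Lss (0.0471). Of all 26, 22 differences were negative. This rests in part on 1 library. In non-pregnant replicate 2 the other nuclei had the least Msmo1, 12.4 CPM, against 21.3 and 18.2 CPM in pregnant libraries and 18.6 CPM in non-pregnant replicate 1. Without non-pregnant replicate 2 none of the 26 passed, although 21 differences were still negative. Without pregnant replicate 1 only Hmgcs1 passed, and without pregnant replicate 2 only Msmo1. Against oligodendrocytes no member passed. The result was not particular to this list. Of 25 astrocyte markers outside the choice, 4 passed the same test against the other kept nuclei, and 15 differences were negative. In core nuclei 7 of the 25 passed and 17 were negative. None of the 25 was called within astrocytes, and in the other kept nuclei 18 had positive fold changes. The part of astrocyte RNA in those nuclei was not tested.

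**Figure D4:**
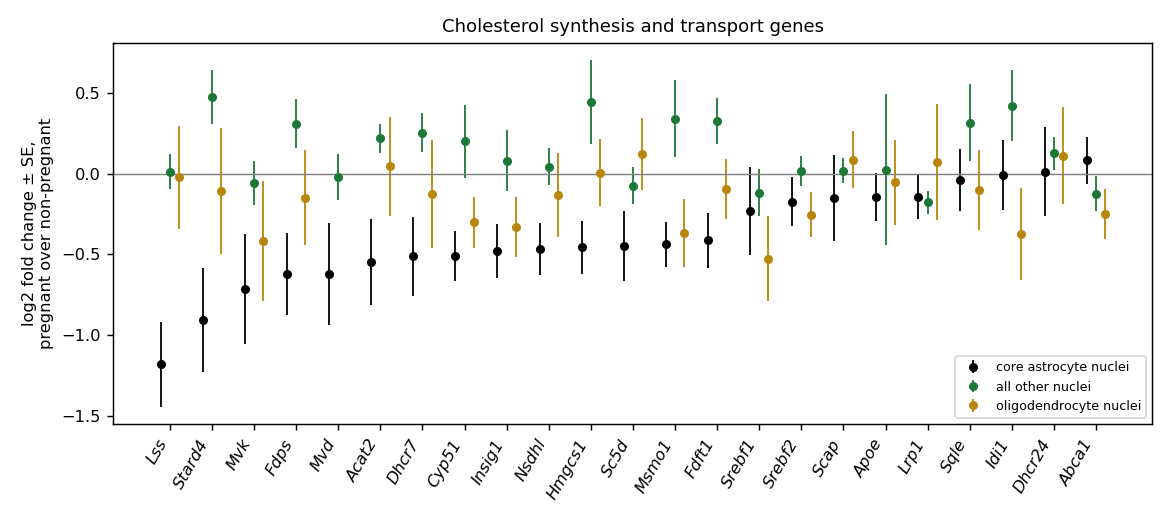
Log2 fold change, pregnant over non-pregnant, with SE, for 23 cholesterol genes tested in core astrocyte nuclei (black), with their values in all other kept nuclei (green) and in oligodendrocyte nuclei (ochre), in order of the core value. In core nuclei 21 of the 23 lie below 0, while 17 green points lie above it.

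Among genes that rose, Unc13c and Etnppl were measured at high levels. Unc13c, a vesicle priming protein of the Munc13 family, stood at 1001 and 928 CPM in pregnant astrocytes, and 557 and 555 CPM in non-pregnant astrocytes. It rose by 0.79 ± 0.12 (adjusted p = 0.000397 by edgeR; core 0.74, adjusted p = 0.000215), was called with any library left out in both sets, and also rose in the other kept nuclei (0.88, adjusted p = 0.000958). Among the cell classes compared its level was highest in oligodendrocyte precursors.

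Etnppl, which breaks down phosphoethanolamine, a building block of membrane lipids, was highest in astrocytes. It stood at 280 and 227 CPM in pregnant astrocytes, and 151 and 104 CPM in non-pregnant astrocytes, and rose by 1.02 ± 0.17 (adjusted p = 0.00156 by edgeR; core 0.94, adjusted p = 0.000484). Without non-pregnant replicate 2 the core call was lost (0.66, adjusted p = 0.118 by edgeR). It was detected in 136 and 114 pregnant and 53 and 56 non-pregnant core nuclei. In the other kept nuclei it rose by more (2.19, adjusted p = 0.00254 by edgeR), where 18 of 25 astrocyte markers had positive fold changes, with a median of 0.27. The part of astrocyte RNA in those nuclei was not tested.

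Genes of neurons made up much of the rest. Snap25, a SNARE protein of synaptic vesicles, stood at 153 and 209 CPM in pregnant astrocytes, and 101 and 59.4 CPM in non-pregnant astrocytes (1.22 ± 0.23, adjusted p = 0.0201 by edgeR; core 1.22, adjusted p = 9.31e-05). In oligodendrocyte nuclei it showed the same order, at 314 and 275 CPM in pregnant and 206 and 119 CPM in non-pregnant libraries (0.82, adjusted p = 0.125 by edgeR), while in all other kept nuclei it changed by 0.11. A sum of 5 neuronal genes stood at 348 and 431 CPM in pregnant and 296 and 210 CPM in non-pregnant core sums, and at 726 and 676 CPM in pregnant and 494 and 314 CPM in non-pregnant oligodendrocyte sums. The part of neuronal RNA free in the suspension in these results was not tested.

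Grm5, the metabotropic glutamate receptor mGluR5, stood at 181 and 176 CPM in pregnant astrocytes, and 88.4 and 58.6 CPM in non-pregnant astrocytes. It rose by 1.32 ± 0.17 (adjusted p = 6.96e-05 by edgeR; core 1.10, adjusted p = 0.000215). It also rose in oligodendrocyte nuclei (1.60, adjusted p = 4.46e-05), at 207 and 196 CPM in pregnant and 76.8 and 52.6 CPM in non-pregnant libraries, and changed by 0.04 in all other kept nuclei. The core call was lost without non-pregnant replicate 2.

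Slc24a4, an exchanger that moves calcium out of the cell in return for sodium, stood at 39.4 and 28.2 CPM in pregnant astrocytes, and 6.06 and 6.42 CPM in non-pregnant astrocytes (2.41 ± 0.39, adjusted p = 0.000618 by edgeR; core 2.44, adjusted p = 0.000487). The groups were far apart, and the call held with any library left out in both sets. DESeq2 called Slc24a4 in neither set (adjusted p = 0.0913 by DESeq2 in the astrocyte sums). In the other kept nuclei the change was -0.21, and the difference from astrocytes was 2.71 (adjusted p = 2.22e-10 by edgeR's interaction test).

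Asic2, an acid-sensing channel (0.70 ± 0.13, adjusted p = 0.0032 by edgeR), Map1b, a microtubule protein (0.96 ± 0.20, 0.00796), Ralyl, an RNA-binding protein (1.74 ± 0.25, 0.000776), and Ndufb9, a subunit of respiratory complex I (1.07 ± 0.24, 0.0152), rose with no overlap between the groups. All 4 were also higher in both pregnant libraries in oligodendrocyte nuclei. There Asic2 stood at 319 and 218 CPM in pregnant and 73.1 and 25.5 CPM in non-pregnant libraries. Ralyl stood at 408 and 281 CPM in pregnant and 227 and 206 CPM in non-pregnant oligodendrocyte nuclei. In the astrocyte sums Map1b did not pass without pregnant replicate 2, nor Asic2 and Ndufb9 without non-pregnant replicate 2. In core nuclei each of the 4 genes lost its call in at least 3 of the 4 fits that left out a library. Syt5, a calcium sensor of exocytosis, had 47 UMIs over the pregnant and 4 over the non-pregnant sums, a ratio per UMI sequenced of 8.72 (exact 95% interval 3.19 to 33.3, counting error only). It lost its call without pregnant replicate 1 in the astrocyte sums (adjusted p = 0.105 by edgeR), and in 3 of the 4 such fits of the core sums. Hbb-bs, a beta-globin gene with near-identical copies, had 101 UMIs over the pregnant and 3 over the non-pregnant sums, a ratio of 24.99 (interval 8.31 to 123). It also rose in oligodendrocyte nuclei (3.05, adjusted p = 0.000397 by edgeR), beside the red blood cell transcripts given above.

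Heat shock genes were also called. Hsp90aa1, the inducible HSP90 chaperone, stood at 107 and 128 CPM in pregnant astrocytes, and 78.7 and 62.6 CPM in non-pregnant astrocytes (0.75 ± 0.18, adjusted p = 0.0247 by edgeR; core 0.77, adjusted p = 0.0453). Hspa8, the constitutive HSP70 chaperone, rose by 0.70 ± 0.17 (adjusted p = 0.0296 by edgeR; in core nuclei 0.0564). Hsp90aa1 did not pass without pregnant replicate 2 or non-pregnant replicate 2, nor Hspa8 without pregnant replicate 1 or non-pregnant replicate 2. The 9 tested genes of the immediate early and stress list had a median of 0.51, with 8 positive. Their medians in other nuclei were similar in size, 0.43 in all other kept nuclei and 0.44 in oligodendrocytes, with none called there.

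Several strong calls in the astrocyte sums belonged to few nuclei. Kcnip4, a potassium channel partner, stood at 567 and 475 CPM in pregnant astrocytes, and 165 and 161 CPM in non-pregnant astrocytes (1.68 ± 0.14, adjusted p = 2.79e-08 by edgeR). The nuclei with 10% or more of their UMIs from neuron-enriched genes, 2 and 3 in pregnant and 1 and 0 in non-pregnant libraries, held 518 and 355 of its 791 and 673 UMIs in pregnant libraries, and 49 and 0 of 136 and 201 UMIs in non-pregnant libraries. In core nuclei the change was 0.60 (adjusted p = 0.0961 by edgeR). Nuclei were left out of the core by their counts of neuronal genes picked in these same data. For Kcnip4 and the neuronal genes below, a weaker change in core nuclei was thus partly set by that choice.

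Kcnq5, Grm7, Cdh12, Gria4, Lingo2, Opcml, Lrrtm4 and Tenm4, channels, receptors and adhesion proteins of neurons, rose by 1.25 to 2.13 in the astrocyte sums and did not pass in core nuclei (0.34 to 0.73). The microglial genes Inpp5d, a lipid phosphatase (-1.35 ± 0.18, adjusted p = 8.04e-05 by edgeR), Runx1, a transcription factor (-1.61 ± 0.25, 0.000397), and Ctss, a lysosomal protease (-1.91 ± 0.30, 0.000508), fell in the astrocyte sums. In core nuclei all 3 had too few counts for the test. In microglial nuclei of the same libraries they changed by -0.14, -0.16 and -0.22, and none passed (adjusted p 0.779, 0.729 and 0.614 by edgeR). Plxdc2, Tgfbr1, Elmo1, Lyn, Kcnk13, Cdk6 and St3gal6 also fell, by 0.95 for Plxdc2 to 2.31 for Kcnk13 on the log2 scale, and were either not testable or not called in core nuclei. Microglial counts picked nuclei left out of the core. The loss of these calls there, with those of Inpp5d, Runx1 and Ctss, was thus partly set by that choice.

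Cemip, which breaks down hyaluronan, fell by 3.73 ± 0.38 (adjusted p = 1.27e-06 by edgeR), but 34 of 38 UMIs in non-pregnant replicate 1 and 59 of 63 UMIs in non-pregnant replicate 2 came from 1 nucleus each. Adamtsl3 (-2.91) stood at 3.59 and 2.12 CPM in pregnant astrocytes, and 13.3 and 28.9 CPM in non-pregnant astrocytes, but 32 of 36 UMIs in non-pregnant replicate 2 came from 1 nucleus. Without that library it did not pass (adjusted p = 0.442 by edgeR).

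Lists of astrocyte identity and of core astrocyte tasks held no called gene, which at 1.45% called over all genes says little for lists of this size. No gene was called among 25 astrocyte markers outside the choice (median 0.00), 16 genes of transmitter and ion uptake and coupling (-0.01), 12 of the endfoot and dystrophin complex (-0.02), 27 of secreted and synapse-organising factors (-0.05), or 23 of glucose, glycogen and lactate metabolism (0.01). These medians lie close to the 0.01 of all genes tested, and their members' adjusted p in edgeR was 0.265 or more. Il33, a cytokine stored in the nucleus, had the smallest of these, at 117 and 113 CPM in pregnant astrocytes, and 89.6 and 78.6 CPM in non-pregnant astrocytes (0.46 ± 0.16, adjusted p = 0.265 by edgeR). Among 22 transcription factors of astrocytes 18 had negative fold changes, with a median of -0.02. Gfap, the filament protein that rises in reactive astrocytes, overlapped between groups, at 24.4 and 38.8 CPM in pregnant astrocytes, and 18.2 and 36.1 CPM in non-pregnant astrocytes, and only 6 of 31 genes of the reactive list had enough counts to test, with none called.

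Receptors for the hormones of pregnancy were measured individually. Of 20, 12 had enough counts, with a median of 0.08 and 9 positive. None was called, beside 1.45% over all genes, and for so few genes a count of 0 says little. Prlr and Oxtr, the receptors for prolactin and oxytocin, had no UMI in any of the 4 astrocyte sums, which allows a level of up to 2.07 and 2.13 CPM in pregnant, and 3.63 and 2.32 CPM in non-pregnant libraries (3 counts). Esr1, Esr2, Gper1, Lepr and Vdr were below the filter on low counts.

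Pgr, the progesterone receptor, stood at 17.9 and 22.6 CPM in pregnant astrocytes, and 23.0 and 18.5 CPM in non-pregnant astrocytes, and overlapped (-0.01 ± 0.33). Higher levels were measured for Paqr8, a membrane progesterone receptor, at 706 and 611 CPM in pregnant and 669 and 475 CPM in non-pregnant astrocytes (0.21 ± 0.14). Ghr, the growth hormone receptor, stood at 567 and 405 CPM in pregnant and 437 and 445 CPM in non-pregnant astrocytes (0.14 ± 0.14). Thrb, a thyroid hormone receptor, had a change of -0.03 ± 0.12, and Nr3c2 and Nr3c1, which bind corticosteroids, of 0.01 ± 0.12 and 0.11 ± 0.13.

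Insr, the insulin receptor, changed by 0.06 ± 0.14. Igf1r, the receptor for insulin-like growth factor 1, stood at 199 and 183 CPM in pregnant astrocytes, and 229 and 278 CPM in non-pregnant astrocytes. Its groups did not overlap, as was so for 18.6% of all genes in that direction, and it did not pass (-0.41 ± 0.14, adjusted p = 0.201 by edgeR). Thra, Rxra, Pgrmc1 and Pgrmc2, a second thyroid hormone receptor, a partner receptor and progesterone-binding membrane proteins, changed by 0.14 ± 0.18, 0.24 ± 0.51, 0.32 ± 0.36 and 0.02 ± 0.38.

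**Figure D5:**
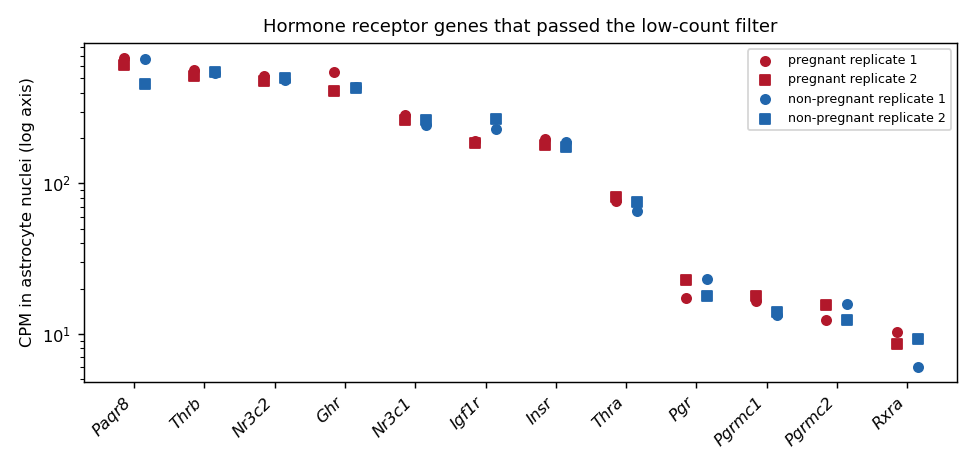
CPM (log axis, relative to all UMIs, without TMM scaling) in all astrocyte nuclei of each library for the 12 hormone receptor genes with enough counts. Red symbols are pregnant and blue non-pregnant libraries, circles replicate 1 and squares replicate 2; the groups overlap or lie close for most genes, and Igf1r is lower in both pregnant libraries.

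Lists of hormone and clock responses had no called member, again beside 1.45% called over all genes, so their counts of 0 say little. Of 18 glucocorticoid-induced genes 15 had positive fold changes, with a median of 0.24. The smallest adjusted p in edgeR was 0.25, for Sult1a1, a sulfotransferase. The list's CPM summed to 1378 and 1348 in pregnant and 1466 and 941 in non-pregnant astrocytes, so the groups overlapped. In the other kept nuclei the list's median was similar, 0.25, with 19 of 23 positive. Fkbp5, a cochaperone of the glucocorticoid receptor, changed by -0.77 ± 0.29 in the astrocyte sums and by 0.26 in core nuclei, and passed in neither (adjusted p = 0.323 and 0.98 by edgeR). Of 18 clock genes 16 were positive with a median of 0.14. In core nuclei 12 of the 18 were positive (median 0.11), and in the other kept nuclei 8 of 19 (median -0.07). Rora, a nuclear receptor of the clock, stood at 4878 and 4704 CPM in pregnant astrocytes, and 3624 and 3913 CPM in non-pregnant astrocytes (0.35 ± 0.12, adjusted p = 0.273 by edgeR). The labels do not state the hour of death. The neurosteroid enzymes (6 tested, median 0.02) and interferon-induced genes (7 tested, median -0.23) had no call. In core nuclei the interferon-induced genes had a median of -0.08 (5 tested). Plcb1, the phospholipase C that couples receptors to calcium release, had a change that differed from that in the other kept nuclei (by 0.56, adjusted p = 0.00539 by edgeR) and did not pass within astrocytes (0.38 ± 0.12, adjusted p = 0.165).

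Region and layer lists were short. Forebrain astrocyte genes (5 tested, median -0.01), genes of astrocytes outside the telencephalon (3 tested, -0.16) and of white matter and surface astrocytes (8 tested, 0.00) had no call. Of upper-layer astrocyte genes all 3 were negative (median -0.32), and of deep-layer genes both of the 2 tested were positive (0.57), none passing. The layers sampled cannot be read from the labels, and their part in the results was not tested. Of the proliferation list only Pcna had enough counts (0.37 ± 0.73, adjusted p = 0.959 by edgeR).

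Over all genes, the pregnancy effect in astrocytes differed from that in the other kept nuclei for 259 of 20218 genes, and in core nuclei for 136 (0.679%; edgeR's interaction test). Against oligodendrocyte nuclei, the other numerous glia here (411 and 340 in pregnant, 422 and 399 in non-pregnant libraries), it differed for 55 of 12129 genes (0.453%) and in core nuclei for 101 (0.857%). The other kept nuclei also differed in make-up. Excitatory nuclei among them numbered 1855 and 1943 in pregnant, and 2498 and 3024 in non-pregnant libraries. Endothelial nuclei numbered 41 and 31 in pregnant, and 14 and 17 in non-pregnant libraries. Microglial nuclei numbered 178 and 229 in pregnant, and 289 and 264 in non-pregnant libraries. The part of this make-up in the differences, here and above, was not tested. Man1a, a mannosidase of the Golgi, was lower in pregnant astrocytes at 37.3 and 46.5 CPM, against 84.8 and 82.7 CPM in non-pregnant astrocytes (-0.99 ± 0.21, adjusted p = 0.00855 by edgeR). It changed by 0.78 in the other nuclei, a difference of -1.73 (adjusted p = 2.93e-13), and of -1.71 in core nuclei (3.21e-08). Within astrocytes it did not pass without pregnant replicate 1.

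Astrocyte nuclei also varied among themselves within each library. The spread of a gene over the core nuclei was set against that of a Poisson count at the same depth, as a description without a test. The lowest ratio over the 4 libraries was 1.06 at the median of 4130 genes, and it was above 2 for 114. It was 23.2 for Malat1, a nuclear noncoding RNA, 10.8 for Luzp2, 8.20 for Trpm3, a cation channel, 6.75 for Dcc, the netrin receptor, 6.30 for Lsamp, a cell adhesion protein, and 5.38 for Gpc5. Kcnd2, Grm3, Lrp1b and Slc1a2 completed the first 10, with ratios from 4.58 to 4.84.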

How the data were processed

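The deposited matrices hold UMI counts per gene and nucleus, which the authors made with Cell Ranger 10.0.0 on GRCm39, per the submitters' processing notes. Symbols are those of the files. The members and gene lists were chosen with earlier results of these data known. Nuclei were selected as the report states. No doublet caller was run beyond the limits on UMIs of other cell types, and free RNA was not subtracted. UMIs were summed per library, 2 pregnant and 2 non-pregnant, and tested in edgeR 4.0.16 (R 4.3.3) with TMM, filterByExpr at a minimum count of 10 and robust quasi-likelihood fits. The 14 genes that the selection counts were left out of calls. Differences between classes of nuclei were tested as an interaction term, blocked on the animal. Shares were permuted in scipy 1.17.1 (Python 3.11.15). DESeq2 1.42.0 was an alternative. P-values rest on 2 animals per group. Counts came from 3' ends, so levels were not divided by gene length, and 1000 genes passed an unadjusted p of 0.05 against 156 after adjustment.

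Genes were named by a rule: the 12 smallest p-values in each direction, taken from called genes without overlap between groups, up to 4 members of each list, and all tested hormone receptors. Genes called both in all astrocyte nuclei and in core nuclei were added after their values were seen. On simulated counts of the astrocyte sums (10408 genes, 50 changed at each fold) the test recovered 28% of genes changed 1.5-fold, 62% at 2-fold, 88% at 3-fold and 96% at 4-fold, with 5 false calls. Each simulated gene had the spread typical of its level, without single outlying nuclei or a group difference in other cells. These rates thus need not hold for the data. Microglial and other classes of nuclei were set by the same kind of marker limits and served for levels. Sums of microglial and oligodendrocyte nuclei were also tested in edgeR. Some members of the cholesterol and hormone receptor lists enter the counts and medians and are not reported here by name.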

Additional observations from a re-analysis of the deposited data

Results flagged for a closer look

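For 8 genes the pregnancy effect in astrocyte nuclei differed from that in other nuclei by edgeR's interaction test. These are the 5 smallest p-values of each comparison among genes that were also called within astrocytes. Against all other kept nuclei the differences in log2 fold change were 1.73 for Kcnip4, 2.02 for Kcnq5, 2.08 for Grm7, -4.00 for Cemip and -1.73 for Man1a. Against oligodendrocyte nuclei they were 2.08 for Grm7, 1.60 for Gria4, -5.10 for Cemip, -2.05 for Kcnk13 and -1.39 for Elmo1. Slco1c1, a thyroid hormone transporter with its highest level in endothelial nuclei, also differed from all other nuclei (-1.30, adjusted p = 8.07e-14 by edgeR), with no call within astrocytes (-0.24). Endothelial nuclei among those others numbered 41 and 31 in pregnant, and 14 and 17 in non-pregnant libraries, and their part was not tested. Nuclei with 10% or more of their UMIs from neuron-enriched genes held 64 and 92 of 119 and 127 Grm7 UMIs in pregnant libraries, and 6 and 0 of 21 and 26 in non-pregnant libraries. They held 89 and 79 of 132 and 126 Kcnq5 UMIs in pregnant libraries, and 3 and 0 of 18 and 29 in non-pregnant libraries. Of Gria4 they held 59 and 61 of 99 and 96 UMIs in pregnant libraries, and 7 and 0 of 18 and 26 in non-pregnant libraries. Because neuronal counts picked these nuclei, such shares were partly set by the choice. In core nuclei, where these were left out, the difference from all other nuclei passed for Kcnip4 (0.64, adjusted p = 0.000674 by edgeR) and Man1a (-1.71, 3.21e-08), and not for Kcnq5 (0.587) or Grm7 (0.856). Kcnk13 and Elmo1 had their highest level in microglial nuclei. For Kcnk13 the mean there was 271 CPM, close to the 241 CPM in oligodendrocyte nuclei. Microglial nuclei made up 3.32% and 6.73% of astrocyte nuclei in pregnant and 11.1% and 12.2% in non-pregnant libraries.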

How the results depend on the processing

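The 156 called genes became 31 with DESeq2, 290 without the low-count filter, 441 and 70 at an astrocyte threshold of 3 and 10 UMIs, 26 with no UMI of other-cell genes, 5 with equal nuclei per library, 127 to 365 with 1 library left out (365 without non-pregnant replicate 1), and 65 without microglial nuclei, which was added after seeing the data. Core nuclei, also added then, gave 32 with TMM and with RLE size factors, 42 with upper-quartile scaling, 47 with the replicate block, 40 with equal nuclei, 1 with DESeq2, and 22, 16, 102 and 18 without pregnant replicate 1, pregnant replicate 2, non-pregnant replicate 1 and non-pregnant replicate 2. With the replicate number as a block 178 genes were called. The labels do not say whether the numbers pair the animals. Deviations of same-numbered samples correlated at -0.04 over genes, which with 2 libraries per group cannot decide it. RLE and upper-quartile scaling (158 and 160), a minimum count of 30 (115) and at least 1000 genes (159) stayed within 1.5 times of 156.

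The 259 genes that differed from all other nuclei became 136 in core nuclei and 88 to 301 with 1 library left out: 158 without pregnant replicate 1, 120 without pregnant replicate 2 and 88 without non-pregnant replicate 2. The 55 that differed from oligodendrocytes became 101 in core nuclei and 5 to 189 with 1 library left out: 5 without non-pregnant replicate 2, 189 without pregnant replicate 2 and 129 without pregnant replicate 1. The share difference of 1.14 points was 0.886 to 1.40 with 1 library left out. Among nuclei with at most 1 neuronal UMI, a smaller denominator, it was 1.70 points. The ratio of the means, pregnant over non-pregnant, was however 1.16 there and 1.48 among all kept nuclei.

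Among the named genes that were called in the main or in the changed setting, signs turned for 5, all in core nuclei. Genes called in neither, such as Fkbp5, are not counted in this. Over all genes called in the main setting, 93 of the 100 still tested kept their sign in core nuclei. The same held for 108 of 113 without microglial nuclei, 96 of 99 with no UMI of other-cell genes, and 125 of 149 with DESeq2 on core nuclei. In core nuclei Tgfbr1 was at 0.076 with TMM, 0.084 with DESeq2, 0.073 with RLE, 0.098 with upper-quartile scaling, 0.097 with the replicate block and 0.026 with equal nuclei. It was at 0.12, 0.035 and 0.30 without pregnant replicate 1, pregnant replicate 2 and non-pregnant replicate 2. DESeq2 on core nuclei gave 0.023 for Cemip, 1.12 for Inpp5d and 0.86 for Elmo1. Elmo1 was at 1.05, 0.48 and 1.44 without pregnant replicate 2, non-pregnant replicate 1 and non-pregnant replicate 2, and Lyn was at 0.25 without non-pregnant replicate 2. The cause of these shifts was not tested.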
